A study of Mus musculus with 12 samples.

Results

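The protocadherin family of the mouse was followed in the colon after local loss of enteric neurons. Its members are the 70 genes of the table whose symbol begins with Pcdh, out of 27179 genes measured. They comprise 14 alpha, 22 beta and 22 gamma genes, which form the 58 clustered protocadherins, and 12 non-clustered genes. RNA sequencing was done on full-thickness colon dissected at an inked injection site in the muscle wall. All animals had a laparotomy and 4 µL of diphtheria toxin at 0.33 ng/µL with 10% India ink, and the time to dissection, the age and the sex are not given in the sources used here. The ablated group (7 libraries, labelled Cre-positive, genotype BAF53b-Cre::R26-iDTR) carried Cre under the promoter of the neuronal chromatin gene BAF53b and a Cre-dependent diphtheria toxin receptor at the Rosa26 locus. The control group (5 libraries, labelled Cre-negative, genotype R26-iDTR) consisted of littermates that carried the receptor locus without Cre and received the same toxin. Nothing in the labels ties each library to a separate mouse. The p-values therefore speak only of variation among libraries, part of which may be technical.

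Protocadherins are cell adhesion proteins of the cadherin superfamily. The alpha, beta and gamma genes lie in 3 neighbouring arrays, and a neuron usually switches on a few of the variable exons of each array, each from a promoter of its own, so that the mixture of isoforms on its surface lets it tell its own branches from those of other neurons. Every alpha variable exon is spliced to one set of constant exons and every gamma variable exon to another, while beta genes are single exons. The last variable exons of the alpha and gamma arrays, called C type, follow other rules of promoter choice and are used more evenly among cells. Non-clustered protocadherins are separate genes with promoters of their own, and several serve in tissues other than brain, among them vessel walls, epithelia and the inner ear.

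Levels are given in TPM, transcript abundances that the authors scaled to gene length and to the library, and mean ± SD is over the 5 control or 7 ablated libraries. Reads recovered from the TPM (the deposited values are whole multiples of a unit per library and gene length) gave a depth of 13.4 to 26.9 M reads per library, ablated 1 being the shallowest, and 1 read per kilobase was worth 0.0697 to 0.129 TPM. Ablated 1 also stood apart on the first principal component of all genes (40.05% of the variance), at 85.2, followed by ablated 6 at 44.5 and ablated 2 at 22.0, while the other 4 ablated libraries lay at -45.9 to -19.4 and the controls at -20.9 to 15.2. The summed TPM of 9 neuronal markers was 85.3 to 205 in control and 16.8 to 31.4 in ablated, and 8 of the 9 were lower in ablated by limma (adjusted p under 0.05 over all genes), with the exception of Elavl3. None of 5 glial, 6 smooth muscle, 5 fibroblast, 6 endothelial, 6 epithelial, 4 macrophage, 4 T and B cell, 2 interstitial cell of Cajal, 3 skeletal muscle or 3 mesothelial markers was called in this main fit. There 3 of the 5 glial markers had an unadjusted p under 0.05. In the limma fit with no minimum level, 1 glial marker was called lower (adjusted p = 0.0424) and 1 marker of interstitial cells of Cajal higher (0.0454). Summed TPM was higher in every ablated library than in any control for the markers of interstitial cells of Cajal (88.8 to 115 in control, 126 to 181 in ablated), of which Ano1 had an adjusted p of 0.0504 in the main fit. It was 17.3 to 30.1 in control and 26.8 to 48.3 in ablated for skeletal muscle, and 476 to 736 and 78.1 to 487 for T and B cells. The part of these cell types in the results below was not tested.

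Of the 70 members, 69 were above 0 in at least 1 library, and 10 reached the minimum set for the main test, at least 0.5 TPM in at least 5 libraries. The other 59 lay between 0 and that minimum. These 10 were Pcdh1, Pcdh7, Pcdh12, Pcdh17 and Pcdh18 among the non-clustered genes, Pcdhb14, Pcdhb17 and Pcdhb20 in the beta array, and Pcdhgc3 and Pcdhgc4 in the gamma array. No alpha gene reached it. Pcdha4 had no read in any library, which at each library's depth allows up to 3 reads. In the GENCODE annotation 91.4% of its exon bases also belong to other genes, which leaves 494 bases of its own. Its absence is therefore uncertain beyond the limit of depth. Of the summed TPM of the family, averaged over the 12 libraries, the non-clustered genes took 75.7%, the gamma genes 12.2%, the beta genes 11.8% and the alpha genes 0.240%. Pcdh1 alone made up 59.7% of the family's TPM, and its lowest library, at 19.9 TPM, was above the highest value of any other member, 4.84 TPM for Pcdhgc3 in ablated 4.

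None of the 10 members above the minimum was called between the groups, where 1.43% of the 16164 genes tested were (231 genes, with 1.01% lower and 0.421% higher in ablated). Their smallest adjusted p was 0.669, for Pcdhgc4, and none had an unadjusted p under 0.05, against 11.8% of the genes tested. The control and ablated values overlapped in each of the 69 members above 0, while 2.44% of all genes above 0 had groups that did not overlap (2.88% of the genes above the minimum). With no minimum, 349 of 22842 genes were called (1.53%), and again none of the 69 members. The call count over all genes was 128 without control 2 and 137 without control 3. In whole tissue, fewer cells of a type and less RNA per cell cannot be told apart.

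**Figure D1:**
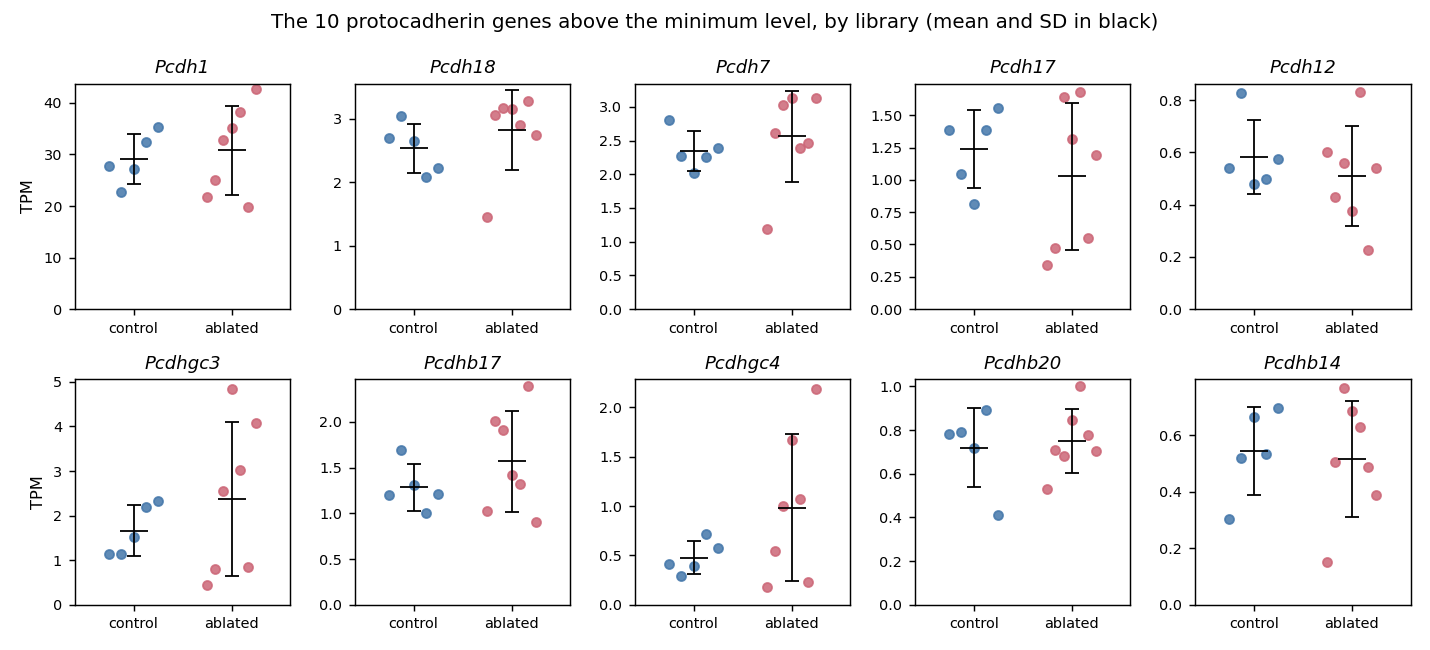
TPM (vertical axes, linear, from 0) of the 10 protocadherin genes above the minimum in each library, 5 control and 7 ablated; black bars are mean and SD. The groups overlap in every panel, and in the panels of Pcdh17, Pcdhgc3 and Pcdhgc4 the ablated libraries spread more widely than the control ones.

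Pcdh1 (gene ID 75599, chromosome 18, 38185914 to 38212048 in GRCm38, the build also called mm10) is known from epithelia, including that of the airway. Control libraries 1 to 5 held 27.8, 22.8, 27.2, 32.5 and 35.4 TPM, and the ablated ones ran from 19.9 (lowest) over 32.7 (median) to 42.6 TPM (highest). The ablated libraries reached both below and above the controls, with ablated 6, 1 and 2 the lowest of their group. The means were 29.1 ± 4.90 TPM and 30.8 ± 8.67 TPM, a log2 fold change of 0.04 (95% interval -0.38 to 0.47, adjusted p = 0.970 by limma on log2 of TPM + 0.5). The summed TPM of 6 epithelial markers, which is 9477 to 11796 in control, was 7571 in ablated 1, 9954 in ablated 6 and 11759 in ablated 2, and 14437 in ablated 7, the library where Pcdh1 was highest. The part of epithelial content in the level of Pcdh1 was not tested.

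Pcdh18 (gene ID 73173, chromosome 3, 49743291 to 49757383) and Pcdh7 (gene ID 54216, chromosome 5, 57716145 to 58133236) were next among the non-clustered genes. Pcdh18 stood at 2.69, 3.03, 2.64, 2.08 and 2.22 TPM in control and at 1.45, 3.05 and 3.28 TPM (lowest, median, highest) in ablated. Apart from ablated 1, the ablated values lay between 2.73 and 3.28 TPM, in and just above the upper range of control. The means of 2.53 ± 0.384 and 2.82 ± 0.632 TPM gave a log2 fold change of 0.11 (95% interval -0.27 to 0.49, adjusted p = 0.905). Pcdh7 stood at 2.80, 2.27, 2.01, 2.25 and 2.40 TPM in control and at 1.19, 2.61 and 3.13 TPM in ablated. Here too ablated 1 was the low library, and the others ran from 2.39 TPM upward. The log2 fold change of Pcdh7 was 0.07 (95% interval -0.34 to 0.48, adjusted p = 0.949).

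Pcdh17 (gene ID 219228, chromosome 14, 84443563 to 84537565), known in brain for its place at synapses of the basal ganglia, showed the widest spread of the non-clustered genes above the minimum relative to its level. It stood at 1.39, 1.04, 0.810, 1.39 and 1.55 TPM in control and at 0.339, 1.19 and 1.68 TPM in ablated. Ablated 1, 2 and 6 were at 0.339, 0.471 and 0.550 TPM, below every control, and the other 4 ablated libraries lay at 1.19 to 1.68 TPM. The means were 1.24 ± 0.303 and 1.03 ± 0.566 TPM and the log2 fold change was -0.26 (95% interval -0.84 to 0.32, adjusted p = 0.807), or -0.13 without ablated 1. Pcdh12 (gene ID 53601, chromosome 18, 38267092 to 38284401), a protocadherin of endothelial cells, stood at 0.539, 0.828, 0.478, 0.499 and 0.576 TPM in control and at 0.225, 0.541 and 0.833 TPM in ablated. The ablated values spanned the control range, and the log2 fold change was -0.12 (95% interval -0.48 to 0.25, adjusted p = 0.888). The lowest library of Pcdh12, ablated 6, also had the lowest summed TPM of 6 endothelial markers, 21.1 against 27.1 to 39.2 in control. Ablated 1, with a sum of 26.8, held 0.600 TPM of Pcdh12, above the ablated median. The part of endothelial content in the level of Pcdh12 was not tested.

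**Figure D2:**
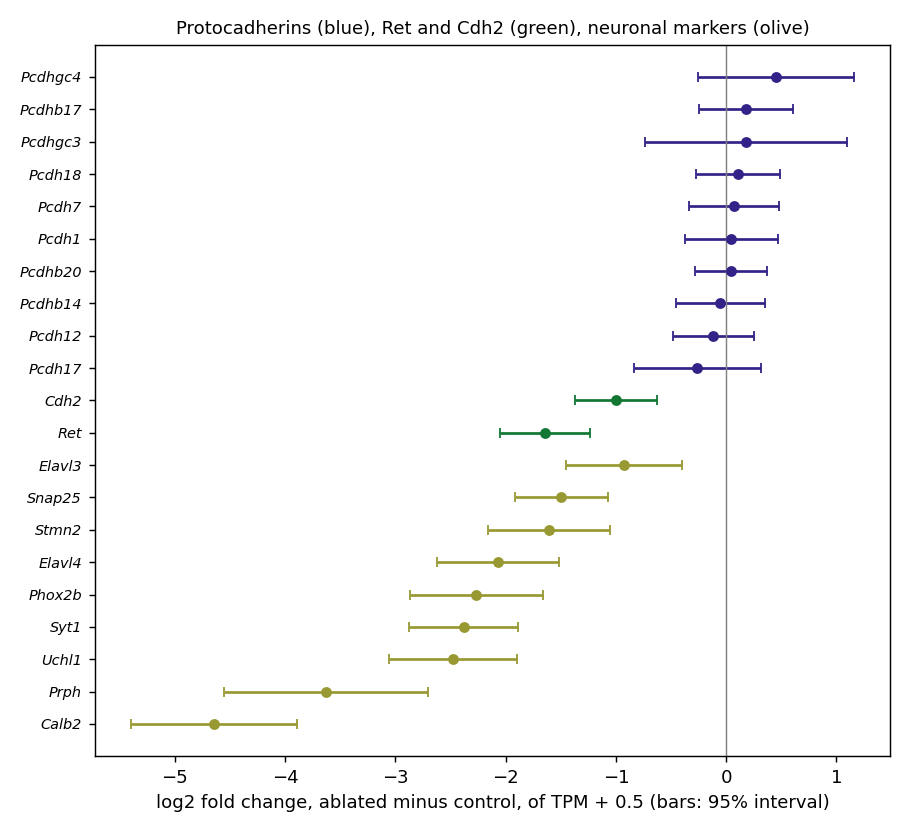
Log2 fold change, ablated minus control, with its 95% interval (horizontal axis) for the 10 protocadherins above the minimum, for Ret and Cdh2, and for 9 neuronal markers. Every protocadherin interval holds 0, while the intervals of Ret, Cdh2 and the 9 markers lie below 0.

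The remaining non-clustered genes lay under the minimum, and their differences were fitted with no minimum. The added constant of 0.5 TPM pulls their log2 fold changes toward 0, so reads are given beside them. The lowest ratio of ablated to control among the non-clustered genes was that of Pcdh10 (gene ID 18526, chromosome 3, 45378398 to 45434579), also called OL-protocadherin and known for its part in axon growth in the forebrain. It stood at 0.0589, 0.234, 0.168, 0.115 and 0.0980 TPM in control, on 6, 37, 26, 17 and 14 reads, and at 0, 0.0203 and 0.0656 TPM (lowest, median, highest) in ablated, on 6, 2, 3, 0, 4, 0 and 4 reads. Only ablated 1 overlapped with control, lying above control 1. Group means were 0.135 ± 0.0680 and 0.0217 ± 0.0223 TPM, a ratio of 0.161 on 100 and 19 reads. The log2 fold change was -0.28 (95% interval -0.42 to -0.13) with an unadjusted p of 0.00119 and an adjusted p of 0.0650 by limma with no minimum, so that the difference did not pass. Over the alternatives run with no minimum the adjusted p of Pcdh10 ran from 0.0206 to 0.415. It passed with 0.1 TPM added in place of 0.5 (adjusted p = 0.0487), with quantile scaling (0.0364), with a weight per library (0.0206), without control 1 (0.0259) and without ablated 1 (0.0342). With the minimum kept, a weight per library called 1092 genes of all and leaving out ablated 1 called 328, against 231 in the main fit. Pcdh10 also passed with voom on the recovered reads (adjusted p = 0.0277, log2 fold change -3.08), which called 1.75% of all genes above 0 (1.51% lower), Pcdh10 as the only member. In the authors' deposited table of their edgeR comparison, Pcdh10 had a log2 fold change of -2.74 and a false discovery rate of 0.0687, the smallest of any member.

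**Figure D3:**
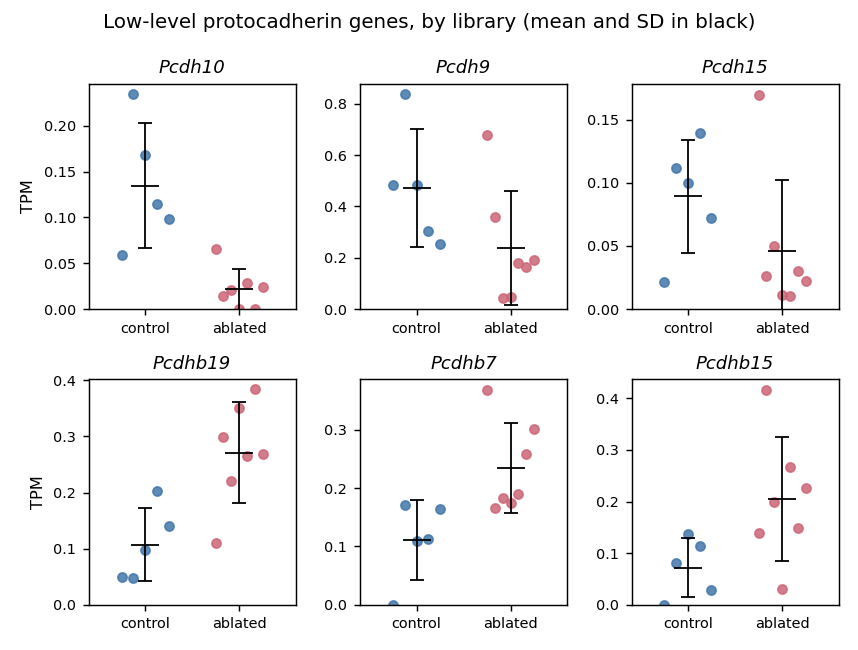
TPM (vertical axes, linear, from 0) of 6 protocadherins under the minimum in each library; black bars are mean and SD. In 6 of 7 ablated libraries Pcdh10 is below and Pcdhb19 above every control, and the groups overlap in each panel through the remaining library or more.

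Pcdh9 (gene ID 211712, chromosome 14, 93013700 to 93892834), another gene best known from neurons, stood at 0.482, 0.838, 0.483, 0.303 and 0.254 TPM in control and at 0.0434, 0.180 and 0.677 TPM in ablated. Of the ablated libraries 5 lay below every control, while ablated 1 and ablated 2 lay among them. The means were 0.472 ± 0.229 and 0.238 ± 0.221 TPM on 158 and 99 reads, and the log2 fold change of -0.42 (95% interval -0.85 to 0.02) did not pass (adjusted p = 0.491). By voom on the recovered reads the log2 fold change of Pcdh9 was -1.48 (95% interval -2.66 to -0.29, adjusted p = 0.304). Over the alternatives its adjusted p ran from 0.0808 to 0.833. Pcdh15, a part of the tip links of hair cells in the inner ear, stood at 0.0217, 0.112, 0.10, 0.139 and 0.0723 TPM in control and at 0.0104, 0.0259 and 0.169 TPM in ablated, on 90 and 52 reads. The highest of all its values was that of ablated 1. The log2 fold change of Pcdh15 was -0.11 by limma with no minimum (95% interval -0.28 to 0.05, adjusted p = 0.700). By voom on the recovered reads it was -1.44 (95% interval -2.73 to -0.14, adjusted p = 0.387). Over the alternatives the adjusted p of Pcdh15 ran from 0.0863 to 0.896. Pcdh20 had means of 0.435 ± 0.0950 and 0.360 ± 0.192 TPM, and Pcdh19, the X-linked gene whose loss causes an epilepsy in girls, had 0.312 ± 0.0717 and 0.413 ± 0.174 TPM. The groups of both overlapped. Pcdh8 and Pcdh11x had 2 and 3 reads in all libraries together, too few to compare.

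Promoter sequence was available in RefSeq (GRCm38.p6) for 9 of the non-clustered members. Those of Pcdh10, with the lowest ratio of ablated to control among them, of Pcdh17, with the wide spread within the ablated group, and of Pcdh20, under the minimum in both groups, are shown to set their content of CpG, the dinucleotide at which DNA is methylated, beside their levels. Each is the 250 bases before the annotated start, 5′ to 3′ on the gene's strand, with CpG in capitals.
Pcdh10, chr3:45378148-45378397, plus strand: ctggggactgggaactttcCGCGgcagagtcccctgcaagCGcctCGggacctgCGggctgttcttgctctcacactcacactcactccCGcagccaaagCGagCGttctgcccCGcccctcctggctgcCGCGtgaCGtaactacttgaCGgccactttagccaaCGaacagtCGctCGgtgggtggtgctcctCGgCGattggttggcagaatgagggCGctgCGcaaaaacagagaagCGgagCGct
Pcdh17, chr14:84443313-84443562, plus strand: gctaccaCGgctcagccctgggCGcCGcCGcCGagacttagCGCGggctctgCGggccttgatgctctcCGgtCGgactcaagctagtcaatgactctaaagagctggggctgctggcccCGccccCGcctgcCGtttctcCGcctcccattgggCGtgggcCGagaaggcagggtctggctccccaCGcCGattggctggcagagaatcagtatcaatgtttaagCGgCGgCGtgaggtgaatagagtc
Pcdh20, chr14:88471397-88471646, minus strand: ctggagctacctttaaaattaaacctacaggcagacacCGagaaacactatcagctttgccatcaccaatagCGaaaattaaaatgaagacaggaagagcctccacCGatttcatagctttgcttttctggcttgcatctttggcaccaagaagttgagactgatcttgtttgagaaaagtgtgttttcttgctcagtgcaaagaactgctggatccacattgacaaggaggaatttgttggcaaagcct
The stretch of Pcdh10 holds 22 CpG and that of Pcdh17 holds 21, where the median of 27025 mouse promoters of this length is 6. At least as many as in Pcdh10 occur in 14.6% of all promoters, and at least as many as in Pcdh17 in 16.1%. Pcdh20 holds 3, a number reached or passed in 70.4% of promoters. Pcdh10 and Pcdh20 thus differ in CpG and both lay under the minimum. The E-boxes CACGTG and CAGCTG and the homeodomain core TAATTA, searched on both strands, occur in none of the 3, and in 6.05%, 12.8% and 4.90% of all promoters.

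The clustered genes lie on chromosome 18 in the order alpha (36930285 to 37188897), beta (37264998 to 37521419) and gamma (37661775 to 37841873). Alpha genes were close to absent from the colon. Their 14 genes had 53 reads in all control and 45 in all ablated libraries, and Pcdhac2, the last gene of the array, held 51 of these reads. The summed TPM of the array was 0.0641, 0.197, 0.173, 0.148 and 0.215 in control and 0.0159 (lowest), 0.0456 (median) and 0.274 (highest) in ablated. Means were 0.160 ± 0.0591 and 0.0932 ± 0.0923 TPM, and the highest and the lowest of all 12 libraries were both ablated. Pcdhac2 (gene ID 353237, 37143678 to 37187663), a C-type gene needed by serotonergic axons to spread over their targets, stood at 0.0641, 0.0551, 0.0422, 0.0734 and 0.122 TPM in control and at 0, 0.0129 and 0.22 TPM in ablated, where 3 libraries had no read. Pcdha10 had 8 reads in control and 3 in ablated, Pcdha12 had 6 and 1, and Pcdhac1, the other C-type gene of the array, had 1 read, in control 2. No alpha gene was called in the fits with no minimum. The smallest adjusted p was 0.750 by limma and 0.366 by voom on the recovered reads. With so few reads, a difference in an alpha gene may have been missed.

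**Figure D4:**
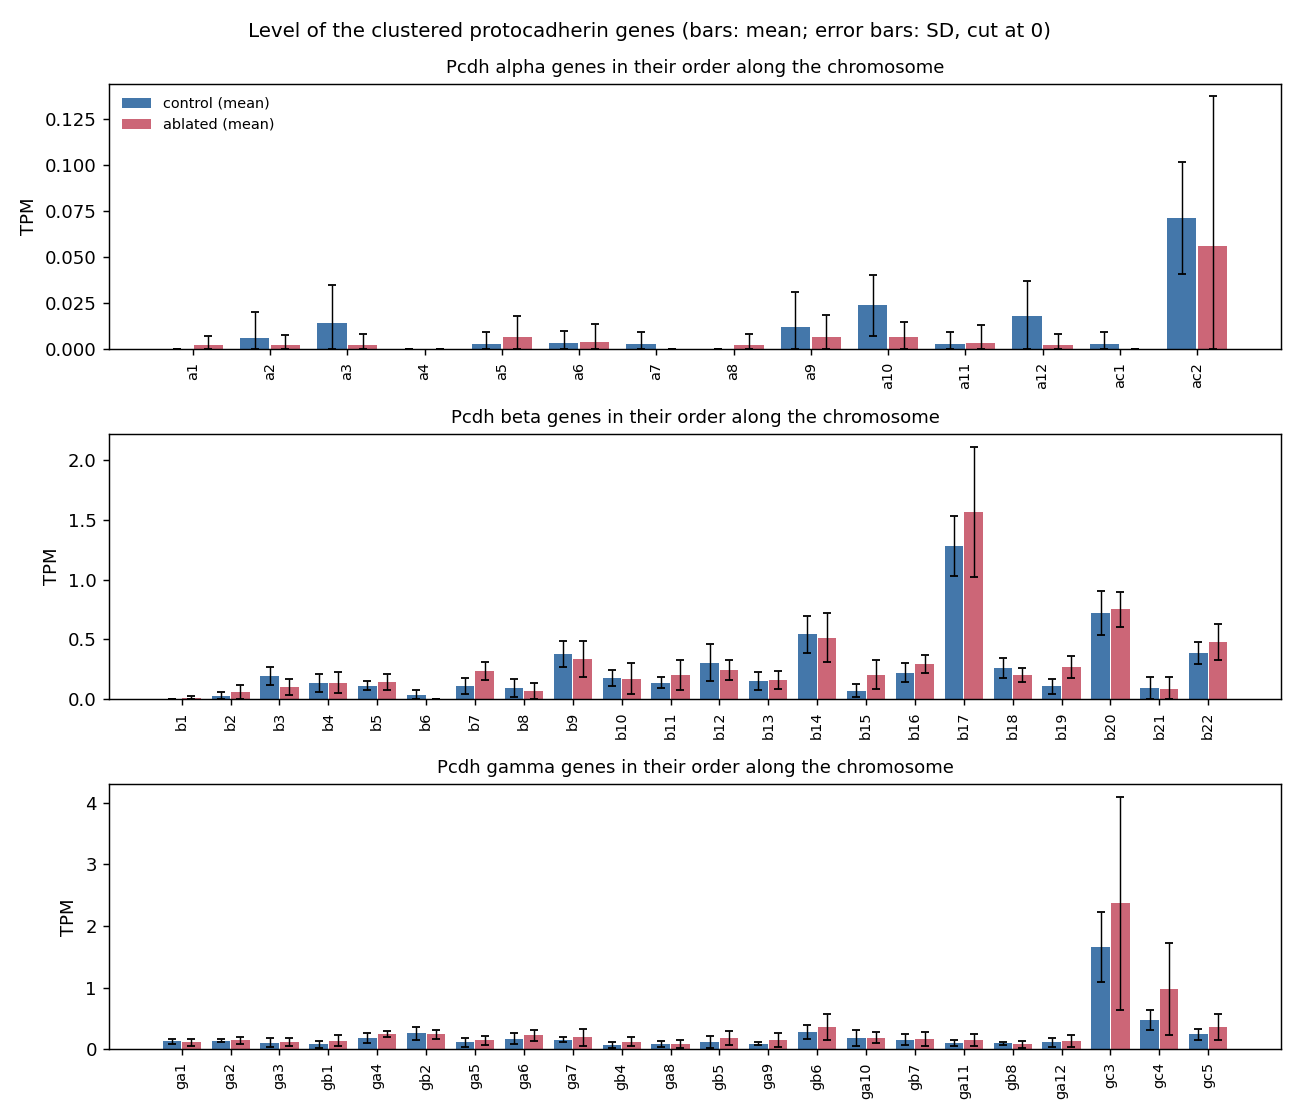
Mean TPM (vertical axes, linear, a scale for each panel) of the alpha, beta and gamma genes in their order along chromosome 18, control and ablated side by side, with SD as error bars cut at 0. The highest alpha gene is the last of its array, the 2 highest gamma genes, Pcdhgc3 and Pcdhgc4, are among the last 3, and the beta genes peak at Pcdhb17, within the array.

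Beta genes were detected more evenly. All 22 were above 0 in some library, 17 of them on at least 50 reads, and their mean TPM ran from 0.00553 (Pcdhb1) to 1.45 (Pcdhb17) with a median of 0.175. Pcdhb17 (gene ID 93888, 37485021 to 37488290) stood at 1.20, 1.69, 1.31, 0.998 and 1.21 TPM in control and at 0.903, 1.41 and 2.39 TPM in ablated. Its 3 highest libraries, ablated 2, 3 and 6, lay above every control and its lowest, ablated 7, lay below, and the log2 fold change was 0.18 (95% interval -0.24 to 0.61, adjusted p = 0.827). Pcdhb20 (gene ID 93891, 37504264 to 37507660) stood at 0.784, 0.791, 0.718, 0.890 and 0.413 TPM in control and at 0.532, 0.708 and 1.0 TPM in ablated, a log2 fold change of 0.04 (adjusted p = 0.962). Pcdhb14 (gene ID 93885, 37447657 to 37451094) stood at 0.303, 0.521, 0.665, 0.533 and 0.696 TPM in control and at 0.150, 0.507 and 0.767 TPM in ablated, a log2 fold change of -0.05 (adjusted p = 0.961). In both genes most of the ablated libraries lay within the control range, and the sign of the small differences turned under some settings: -0.06 for Pcdhb20 without control 5, and 0.05 for Pcdhb14 without ablated 1.

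With no minimum, 3 beta genes had an unadjusted p under 0.05 by limma, all with the higher mean in ablated. With Pcdh10 they were the 4 members of 69 to do so, where 10.8% of all genes above 0 did. This count depends on the fit, as the added constant of 0.5 TPM weighs on low genes. By voom on the recovered reads 9 of the 69 members had an unadjusted p under 0.05, and 2445 of 22842 genes above 0 did. Pcdhb19 (gene ID 93890, 37496998 to 37501711) stood at 0.0492, 0.0475, 0.0970, 0.203 and 0.140 TPM in control and at 0.109, 0.268 and 0.385 TPM in ablated. Of the ablated libraries 6 lay above every control, and ablated 1 lay among them. The means of 0.107 ± 0.0656 and 0.271 ± 0.0903 TPM, on 31 and 112 reads, gave a log2 fold change of 0.34 (95% interval 0.13 to 0.56) and an adjusted p of 0.146. Over the alternatives the adjusted p of Pcdhb19 ran from 0.0214 to 0.362, and it passed with a weight per library (0.0214) and without ablated 1 (0.0271). Pcdhb7 had means of 0.111 ± 0.0685 and 0.234 ± 0.0774 TPM (adjusted p = 0.269) and Pcdhb15 had 0.0720 ± 0.0569 and 0.204 ± 0.120 TPM on 13 and 49 reads (adjusted p = 0.375). The 22 beta genes did not lean to one side: 12 had a log2 fold change above 0 and 10 below, with a median of 0.03, equal to that of all genes above 0 (0.03).

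The summed TPM of the beta array was 4.74, 6.14, 5.53, 5.37 and 5.97 in control and 4.13, 6.63 and 7.06 in ablated. Ablated 1 was the lowest of all 12, and 5 of the 7 ablated libraries lay above the highest control. The means were 5.55 ± 0.549 and 6.24 ± 0.993 TPM, a ratio of 1.13. No p is given for such sums.

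Gamma genes spread widely among the ablated libraries, and their highest levels were at the end of the array. Its 3 C-type genes are Pcdhgc3, Pcdhgc4 and Pcdhgc5 at its end. Together they took 2.39 ± 0.698 of 5.07 ± 1.26 TPM in control and 3.72 ± 2.59 of 6.95 ± 3.60 TPM in ablated. By mean TPM over the 12 libraries, only Pcdhgc3 and Pcdhgc4 lay above every A-type and B-type gene. Pcdhgc5 had a mean of 0.317 TPM, against 0.326 TPM for the B-type gene Pcdhgb6. Pcdhgc3 (gene ID 93706, 37806410 to 37841873), which binds the Wnt pathway protein Axin1, stood at 1.14, 1.15, 1.53, 2.19 and 2.32 TPM in control and at 0.440, 2.56 and 4.84 TPM in ablated. Ablated 1, 2 and 6 (0.440, 0.814 and 0.848 TPM) lay below every control and the other 4 (2.56 to 4.84 TPM) above every control. With the ablated libraries on both sides of control, the means of 1.67 ± 0.565 and 2.37 ± 1.73 TPM gave a log2 fold change of 0.18 with a 95% interval of -0.74 to 1.09 (adjusted p = 0.944).

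Pcdhgc4 (gene ID 93707, 37815079 to 37841873), the gamma isoform that neurons need for survival in mice, stood at 0.415, 0.297, 0.394, 0.713 and 0.575 TPM in control and at 0.180, 1.0 and 2.18 TPM in ablated. Ablated 1 and 6 lay below every control, ablated 2 lay among them, and ablated 3, 4, 5 and 7, at 1.0 to 2.18 TPM, lay above every control. The means were 0.479 ± 0.165 and 0.984 ± 0.743 TPM and the log2 fold change was 0.45 (95% interval -0.26 to 1.16, adjusted p = 0.669), the largest of the 10 members tested. Pcdhgc5, which associates with GABA-A receptors in brain, stood at 0.394, 0.159, 0.243, 0.254 and 0.193 TPM in control and at 0, 0.370 and 0.672 TPM in ablated, with no read in ablated 1 (adjusted p = 0.822 by limma with no minimum). Among the A-type and B-type genes the highest was Pcdhgb6, at 0.277 ± 0.114 and 0.362 ± 0.208 TPM. Their sum was 2.68 ± 0.610 TPM in control and 3.23 ± 1.04 TPM in ablated, with ablated 1, 6 and 2 again the lowest of their group (1.83, 2.29 and 2.37 TPM) and ablated 3, 4, 5 and 7 at 3.76 to 4.42 TPM.

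**Figure D5:**
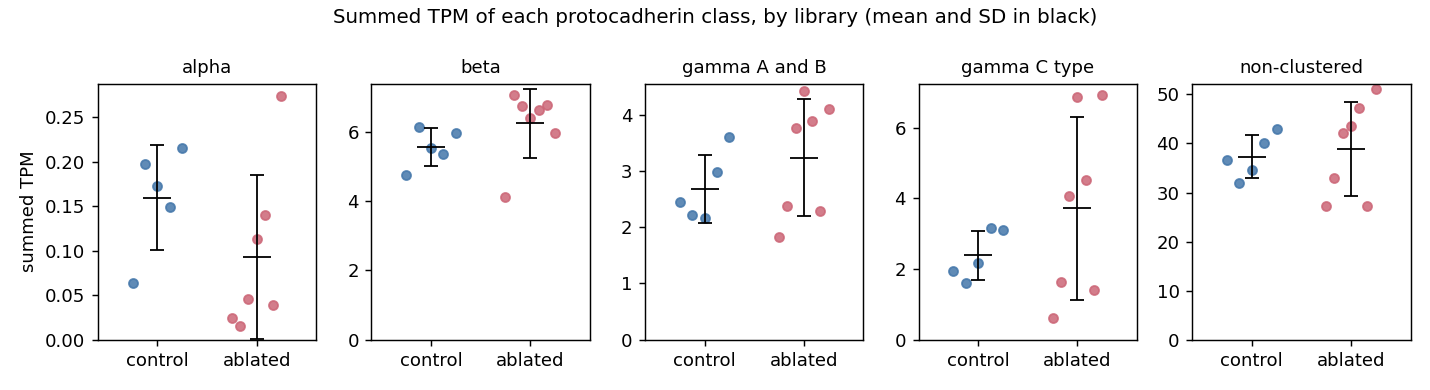
Summed TPM (vertical axes, linear, from 0) of the alpha, beta, gamma A and B, gamma C-type and non-clustered genes in each library, 5 control and 7 ablated; black bars are mean and SD. In the gamma C-type panel 3 ablated libraries are at 0.620 to 1.64 and 4 at 4.07 to 6.94, and the groups overlap in each panel.

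The summed TPM of the gamma array was 4.40, 3.81, 4.32, 6.14 and 6.69 in control and 2.45 (lowest), 7.82 (median) and 11.3 (highest) in ablated, a ratio of means of 1.37. The same 3 ablated libraries that were low in gamma genes and in Pcdh17 were those highest on the first principal component, ablated 1, 6 and 2. They were also the lowest of their group in the summed TPM of the 6 epithelial markers (7571, 9954 and 11759), against 11923 to 14437 in ablated 3, 4, 5 and 7. Erbb3, a neuregulin co-receptor of glia that epithelia express too, followed the same order, at 15.8, 19.8 and 24.6 TPM in ablated 1, 6 and 2 and at 47.2 to 91.7 TPM in the other 4. Among controls, Erbb3 and the C-type gamma sum were both lowest in control 2 (19.2 and 1.6 TPM) and highest in control 4 (37.8 and 3.16 TPM). Glial markers other than Erbb3 (Sox10, S100b, Gfap and Fabp7) did not follow it: their sum was 5.07, 3.97 and 5.90 TPM in ablated 1, 6 and 2, within or above the 3.17 to 5.66 TPM of the other ablated libraries, and 6.42 to 10.9 TPM in control, above every ablated library. Neuronal markers did not follow it either: in ablated their sum was 22.0 in ablated 1, 31.4 in ablated 2 and 21.9 in ablated 6, and 16.8 to 28.1 in the others. Smooth muscle markers summed to 6773, 22700 and 15488 TPM in ablated 1, 6 and 2, and to 7984 to 9702 TPM in the other ablated libraries. The epithelial sum of ablated 2 lay within the control range of 9477 to 11796 TPM. The order was seen in the data, and the part of epithelial or any other cell content in the gamma levels was not tested.

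Clustered and non-clustered genes were then set side by side. The clustered genes together had 10.8 ± 1.47 TPM in control and 13.3 ± 4.06 TPM in ablated, a ratio of 1.23, and the non-clustered genes 37.3 ± 4.37 and 38.8 ± 9.59 TPM, a ratio of 1.04. Without Pcdh1 the non-clustered genes had 8.15 ± 0.824 and 8.0 ± 1.26 TPM, a ratio of 0.981. The 5 clustered members above the minimum had a median log2 fold change of 0.18 (4 above 0, 1 below), the 5 non-clustered members 0.04 (3 above, 2 below) and all genes tested 0.03. With 1 library left out, the clustered median ran from 0.0233 (without ablated 4) to 0.246 (without ablated 1), and the non-clustered median from -0.0412 (without ablated 7) to 0.117 (without ablated 1), with a value below 0 also without control 2 (-0.0386) and without ablated 5 (-0.0156). With no minimum, the median was 0.03 for 57 clustered genes (36 above 0, 21 below) and -0.06 for 12 non-clustered genes (4 above, 8 below). By array it was -0.01 for alpha (5 above, 8 below) and 0.09 for gamma (19 above, 3 below). The added constant of 0.5 TPM holds the values of low genes, above all alpha, near 0. With voom on the recovered reads and no minimum, the median was -0.38 for alpha (3 above, 10 below) and 0.23 for gamma (16 above, 6 below). It was 0.03 for clustered genes (31 above, 26 below), -0.33 for non-clustered genes (3 above, 9 below) and -0.02 for all genes. Gamma genes share the libraries that were high or low, so their common sign is not 19 separate observations, and the difference between the classes was not tested.

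The length behind a level bears on the comparison of arrays. By GENCODE, a median of 53.6% of the exon bases of alpha genes and 44.7% of those of gamma genes belong also to other genes of the array, while the lengths recovered from the TPM (5206 to 5422 bases for alpha, 4480 to 5080 for gamma) include these shared exons. Scaled to the bases a gene has for itself, the gamma array came to 9.92 ± 2.38 TPM in control and 13.6 ± 6.76 TPM in ablated, above the beta array, and the alpha array to 0.318 ± 0.113 and 0.193 ± 0.188 TPM, still below both. Pcdhac2 had 51 reads where Pcdhac1 had 1 and Pcdha4 had 0, so reads on shared alpha exons were not credited to every alpha gene. Whether such reads were dropped, and how those of gamma genes were counted, is not given in the sources used here. Members that share exons are uncertain to that extent. The ratios between groups moved little, to 1.37 for gamma and 0.608 for alpha.

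Genes that act on or with protocadherins were examined as background to the family. The promoters of the clusters are chosen with the help of CTCF, which loops them to distant enhancers together with cohesin, and are silenced by DNA methylation and by proteins such as SMCHD1. None of 18 such genes was called, and their median log2 fold change was 0.12. The 2 with the smallest p were Mau2, a cohesin loader, at 25.5 ± 2.34 and 30.4 ± 1.91 TPM (adjusted p = 0.241), and Dnmt1, the maintenance DNA methyltransferase, at 12.2 ± 2.32 and 15.8 ± 3.91 TPM (adjusted p = 0.494).

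Of 24 cytoplasmic partners, actin regulators and proteases that cut protocadherins, 1 was called, where 1.43% of all genes tested were. An unadjusted p under 0.05 by limma was found for 8 of the 24, against 11.8% of all genes tested. Ret, the receptor tyrosine kinase of enteric neurons and their precursors, which also phosphorylates clustered protocadherins, fell from 3.29 ± 0.992 TPM to 0.694 ± 0.204 TPM (log2 fold change -1.65, 95% interval -2.05 to -1.24, adjusted p = 0.000591). Its control and ablated values did not overlap. Brk1, a subunit of the WAVE complex that binds the tails of some protocadherins, was at 220 ± 4.28 and 181 ± 27.8 TPM, with groups that did not overlap, but was not called (adjusted p = 0.311). Groups did not overlap in 2 of the 24, against 2.88% of all genes tested. The median log2 fold change of the 24 was 0.09.

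In the wider superfamily, 8 of 19 classical and type II cadherins were above the minimum and 1 was called, where 1.43% of all genes tested were. Cdh2, or N-cadherin, the classical cadherin of neurons, fell from 1.58 ± 0.368 to 0.541 ± 0.209 TPM (log2 fold change -0.999, 95% interval -1.37 to -0.62, adjusted p = 0.00952). None of 16 tested members of the Celsr, Fat, Dachsous, calsyntenin, desmosomal and related groups was called. With no minimum, where 1.53% of all genes above 0 were called, 1 of 22 was called. It was Clstn2, a calsyntenin of synapses, which fell from 0.201 ± 0.0429 to 0.0459 ± 0.0376 TPM on 53 and 18 reads (adjusted p = 0.0112).

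The authors' deposited table likewise called no member. It lists 306 genes at a false discovery rate under 0.05 (1.13% of its 27179 genes), none of them a protocadherin. Pcdh10, Pcdhb19, Pcdhb6 and Pcdha12 had an unadjusted p under 0.05 in the authors' deposited table, with log2 fold changes of -2.74, 1.29, -2.98 and -2.31. The share of all its genes at that p was not counted, so their number is not read as a result about the family. Pcdhb6 rests on 4 reads, all in control, and Pcdha12 on 7.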

How the data were processed

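Polyadenylated RNA of 12 libraries was sequenced. Per the submitters' processing notes, bcl2fastq 2.17, HISAT and featureCounts were used with mm10; no other version is given in the sources used here. The authors deposited TPM per gene, as 12 files identical to a table of all libraries. The authors' edgeR comparison, as deposited, gives each gene a p-value and FDR, the log2 of its fold change and of its mean CPM, and a score (F).

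The main fit took genes that reached 0.5 TPM in 5 or more libraries. Limma 3.58.1 (R 4.3.3; eBayes with a trend, two-sided) compared ablated with control on log2(TPM + 0.5), with Benjamini-Hochberg adjustment across every gene in the fit. A second fit had no minimum. Reads were recovered by searching a length per gene that makes all values whole: 100% of values came within 0.05 of whole reads. Across genes, mean log2 CPM from these reads correlated with the authors' at r = 0.996. Scripts were tested on simulated data. Sums, exon overlaps and promoters used Python 3.11.15, pandas 2.3.3 and numpy 2.4.6, with figures by matplotlib 3.10.9. Coordinates are RefSeq's for GRCm38.p6, with all 70 members matched by gene ID, and exon overlaps GENCODE's, with 69 matched by symbol.

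Members and gene lists were chosen with earlier results of these data known. Named by rule were members called in either fit, non-clustered genes averaging 0.5 TPM or more in a group, C-type genes and the 3 highest of each array, and from other lists called members or the 2 with the smallest p. Pcdh9, Pcdh10, Pcdh15, Pcdh19, Pcdh20, Pcdha4, Pcdhb6, Pcdhb7, Pcdhb15 and Pcdhb19, the genes named for few reads (Pcdh8, Pcdh11x, Pcdhb1) and Brk1 were named after their values were seen. Alternatives changed the added constant, minimum, scaling, variance model, unit, library block and libraries. Some listed markers are not reported here. Reads shared by members of a cluster could not be separated.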

Additional observations from a re-analysis of the deposited data

Results flagged for a closer look

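Of 55 groups of values checked, 9 held a library far from the others of its group (Dixon's 95% critical value). The chance rate of about 1 in 20 holds for independent, normally distributed groups. These groups share the same libraries and some hold mostly values of 0, so the 9 cannot be set against that rate. Ablated 1, the shallowest library, gave 5 of the 9. It was the lowest of its group for Pcdh18 (1.45 TPM, the next library 2.73), for Pcdh7 (1.19 TPM, next 2.39) and for the summed beta genes (4.13 TPM, next 5.97), and the highest for Pcdh15 (0.169 TPM, next 0.0499) and Pcdh10 (0.0656 TPM, next 0.0282). Control 2 was the highest of its group for Pcdh12 (0.828 TPM, next 0.576), and control 4 for Pcdhgb6 (0.476 TPM, next 0.271). Single reads gave the other two: Pcdha12 was at 0.0158 TPM in ablated 5 and at 0 in the other ablated libraries, and Pcdhac1 at 0.0141 TPM in control 2 and at 0 in the other controls.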

How the results depend on the processing

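No member above the minimum was called under any alternative. Members under it were called only in fits with no minimum, added after seeing the data: 1 (Pcdh10) with 0.1 TPM added, with quantile scaling, with voom and without control 1, and 2 (Pcdh10 and Pcdhb19) with a weight per library and without ablated 1, so that 0 to 2 were called over the fits that left out a library. Over all genes 231 were called, against 349 with no minimum, 1092 with a weight per library, and 128 (without control 2) to 328 (without ablated 1) with a library left out. The labels do not state whether the library numbers pair the libraries. The correlation of same-numbered libraries was -0.27 to 0.36, with 1 of 5 numbers matching its own best, which cannot exclude a pairing. With the number as a replicate block 84 genes and no member were called, and Cdh2 was not (log2 fold change -0.94, adjusted p = 0.129). Log2 fold changes near 0 turned sign: Pcdh1 to -0.0218 with quantile scaling and -0.0155 with voom, Pcdh12 to 0.0269 and Pcdhb14 to 0.0869 with quantile scaling, Pcdhb14 to 0.0063 and Pcdhac2 (no minimum) to 0.0312 with a weight per library. With a library left out they ran from -0.0412 to 0.139 for Pcdh1, -0.145 to 0.0488 for Pcdhb14, -0.0582 to 0.0935 for Pcdhb20 and -0.0160 to 0.401 for Pcdhgc3. The cause was not tested. With a library left out the ratio of summed TPM ran from 0.395 to 0.664 for alpha, 1.09 to 1.19 for beta, 1.23 to 1.52 for gamma and 0.985 to 1.09 for non-clustered genes, and the median log2 fold change from 0.0233 to 0.246 for clustered and from -0.0412 to 0.117 for non-clustered genes above the minimum. Depth limits alpha genes, 13 of 14 on fewer than 50 reads.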
